A study of Mus musculus with 147 samples.

Results

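The 9 genes described here encode receptors through which hormones, nerves and local mediators control the release of renin: *Adrb1*, *Ptger2*, *Ptger4*, *Ptgir*, *Glp1r*, *Adora1*, *Casr*, *Ednra* and *Ednrb*. They were picked by gene symbol from the 35438 genes of the data set and not by their values, though with earlier results of these data known. All 9 were found. Single YFP-positive cells were sorted from the kidney cortex of adult C57BL/6 mice, with 51 wells of WT renin cells (*Ren1c+/+ Ren1c-YFP*) and 96 wells of Renin null cells (*Ren1c-/- Ren1c-YFP*). In both genotypes the YFP transgene is under control of the 5′ flank of *Ren1c*, so the sort depended on the activity of that sequence. Several mice of each genotype were used, WT renin cells came from a single capture and Renin null cells from several, and mice with the KO allele had been given saline after birth, which the methods do not state for WT mice. Sequencing put the Renin null wells in 2 libraries of 48 wells each (YFP1, YFP2) and the WT wells in a library of their own. No label ties a well to a mouse, so each genotype is 1 sample and the genotypes were compared without a test. Effects of genotype, capture and library cannot be told apart.

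Renin is stored in granules of the juxtaglomerular cells of the afferent arteriole, and its release is driven by cyclic AMP. Receptors coupled to the stimulatory G protein Gs raise cyclic AMP and renin release: the beta-1 adrenergic receptor (*Adrb1*), which answers renal sympathetic nerves, and the receptors for prostaglandin E2 (*Ptger2*, *Ptger4*) and prostacyclin (*Ptgir*), which answer prostanoids made near the macula densa. The receptor for glucagon-like peptide 1 (*Glp1r*) is also coupled to Gs and is known from the smooth muscle of renal arterioles. The adenosine receptor *Adora1*, the calcium-sensing receptor *Casr* and the endothelin receptors *Ednra* and *Ednrb* are known as brakes on renin release, through inhibitory G proteins or through calcium.

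*Glp1r* was the most abundant receptor per length in WT renin cells and *Ednrb* in Renin null cells, so their promoter windows are shown side by side. The sequences are RefSeq windows on GRCm38.p6, from 250 bases before the annotated start to 50 bases after it, on the gene's own strand. The *Ednrb* window is chr14:103843652-103843951 on the minus strand, and the *Glp1r* window is chr17:30901617-30901916 on the plus strand. Capitals mark the core of the cyclic AMP response element (TGACG or CGTCA) and, in *Glp1r*, GC boxes (GGGCGG or CCGCCC), with both strands searched.
Ednrb: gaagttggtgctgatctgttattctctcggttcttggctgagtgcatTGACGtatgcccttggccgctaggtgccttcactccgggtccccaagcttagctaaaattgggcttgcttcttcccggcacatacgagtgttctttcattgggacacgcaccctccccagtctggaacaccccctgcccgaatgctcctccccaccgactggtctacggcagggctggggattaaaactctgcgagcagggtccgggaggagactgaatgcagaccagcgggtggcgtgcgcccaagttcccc
Glp1r: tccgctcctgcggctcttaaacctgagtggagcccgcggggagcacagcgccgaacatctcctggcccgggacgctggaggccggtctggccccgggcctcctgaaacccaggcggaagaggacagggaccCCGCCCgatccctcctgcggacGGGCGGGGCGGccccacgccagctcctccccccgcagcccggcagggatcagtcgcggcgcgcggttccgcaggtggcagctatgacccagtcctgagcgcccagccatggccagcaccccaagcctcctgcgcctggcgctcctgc
The *Ednrb* window held 1 response element core and no GC box, and the *Glp1r* window held 3 GC boxes, of which a pair overlap, and no core. Of the 9 receptors, 2 (*Adrb1* and *Ednrb*) held the core and 5 held a GC box (*Adrb1*, *Ptger4*, *Ptgir*, *Adora1* and *Glp1r*), among 10 windows of which *Adora1* had a pair. Among all 32851 windows of 300 bases, 20.8% held the core and 35.7% held a GC box. These are matches of letters, and no binding was measured.

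Total counts per well ran from 26401 to 17124854 in WT renin cells (median 1525972) and from 3628 to 14505243 in Renin null cells (median 4107950). The median mitochondrial share was 60.4% in WT wells and 12.4% in Renin null wells. Wells are called within the limits below if they had 100000 counts or more, 1000 genes or more and a mitochondrial share of 25% or less. They were 15 of the WT wells and 57 of the Renin null wells, and they held 75.7% and 89.03% of the counts of their genotype. The deleted gene followed the labels. *Ren1*, which encodes renin, was at 96023 CPM (counts per 1000000 counts of a well or sum) in the sum of the WT wells, with counts in all 51, and had 54 counts in the sum of the Renin null wells, with no more than 17 in any well. Among Renin null wells, 4 pairs had nearly the same profile (Pearson r of 0.974 or more over genes, against 0.896 for the next pair). Ratios and shares of wells with a count were also computed with each pair counted once. Correlations over wells and counts of wells at 100 CPM or more kept every well of these pairs. Cells 46 and 94, 45 and 93, and 47 and 95 each pair a YFP1 well with a YFP2 well, while 48 and 96 are both in YFP2. Whether a pair is the same cDNA sequenced more than once was not tested, so the Renin null libraries may not be fully separate. The chemistry has no molecular identifiers, so the intervals given here cover counting error only.

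Low counts need care in the WT library. Genes of which a single WT well held 1000 counts or more and 80% or more of the WT total were also counted in 59.7% of wells with an index in common with it and in 13.8% of wells with none in common, against 25.7% and 25.5% in YFP1 and 32.0% and 27.7% in YFP2. Low counts in a WT well therefore cannot be told apart from counts spread between wells, and wells with at least 100 CPM of a receptor are given beside wells with any count. In shallow wells 100 CPM can itself rest on few counts, such as 4 of *Ednra* in WT cell 15 and 2 of *Ednrb* in Renin null cell 44.

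Between the genotypes, 4 receptors were lower by 2-fold or more in the Renin null sum (*Glp1r*, *Adora1*, *Ednra* and *Ptger2*) and 3 were at least 2-fold higher (*Ednrb*, *Ptger4* and *Casr*), while *Adrb1* and *Ptgir* lay within 2-fold. Of all 18720 genes with a ratio, 18.5% were lower and 52.4% higher in Renin null cells by the same 2-fold limit. The median log2 ratio of the 9 receptors, Renin null over WT, was 0.36, against 1.17 for all genes, so the table as a whole leaned to Renin null cells. The receptors' median was below that of all genes in this setting, but not with YFP1 alone (0.73 against 0.71) or for the difference of mean log2(CPM + 1) (0.24 against 0.13). With TMM factors, which rescale both sums to the bulk of genes, the all-gene median moved to 0.47 and the receptors' median to -0.35, with 4 receptors lower (27.2% of genes) and 2 higher (43.1%). In wells within the limits the counts were again 4 lower (20.1% of genes) and 3 higher (51.6%). Against WT, YFP1 alone gave 4 lower (27.4%) and 3 higher (45.7%), and YFP2 alone 3 lower (22.7%) and 3 higher (49.8%). The share of wells with a count was larger in Renin null cells for 5 of the 9 receptors, against 74.4% of genes, and smaller for 4, against 25.4%. A ratio of sums mixes the number of wells that hold a transcript with the level in each, so the wells are described receptor by receptor.

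**Figure D1:**
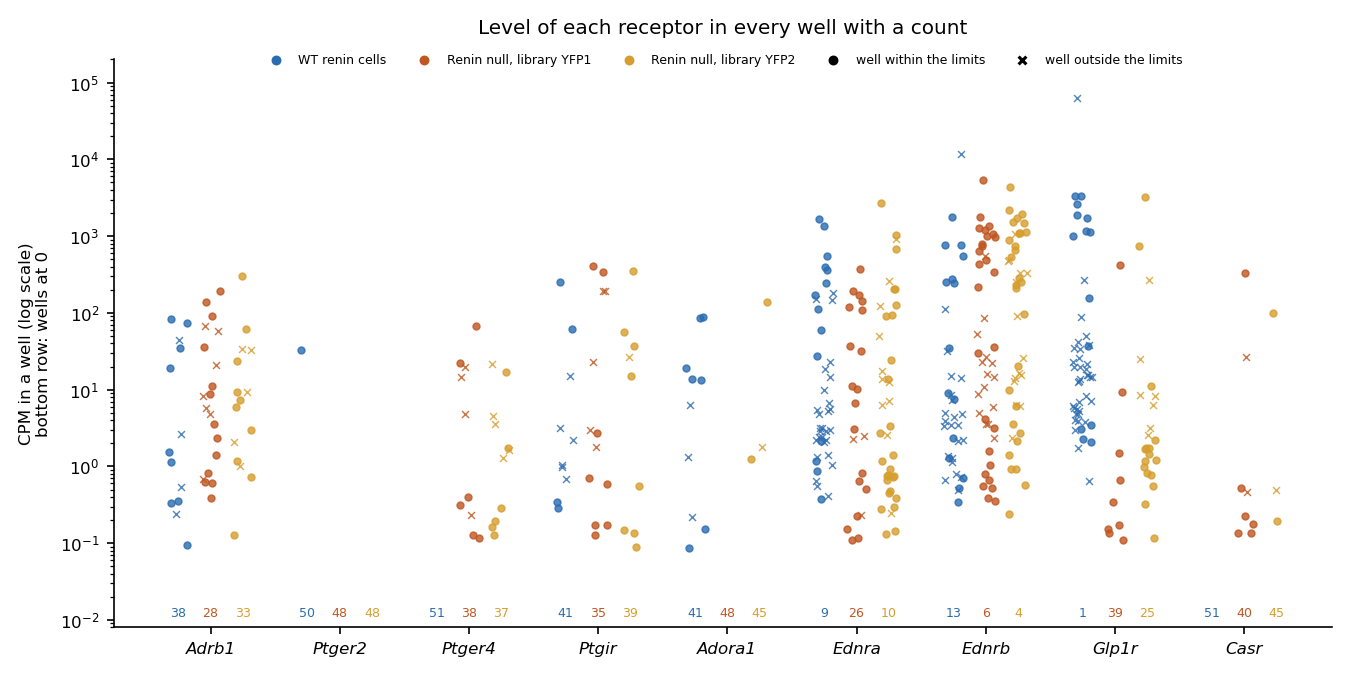
Level, in CPM, of each receptor in every well with a count (log scale), by library, with circles for wells within the limits, crosses for the other wells, and the number of wells at 0 along the bottom. *Glp1r* filled an upper band of WT wells between 990.5 and 3349.9 CPM, which in the Renin null libraries held 1 well, while *Ednrb* filled a band near 1000 CPM in both Renin null libraries.

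Per kilobase of exon, the order of summed levels in WT renin cells was *Glp1r* (168 CPM per kb), *Ednrb* (60.2), *Ednra* (54.6), *Ptgir* (4.54), *Adrb1* (3.43), *Adora1* (2.19) and *Ptger2* (0.386), with *Ptger4* and *Casr* at 0. In Renin null cells the order was *Ednrb* (165), *Ednra* (25.8), *Glp1r* (17.9), *Ptgir* (6.39), *Adrb1* (4.398), *Casr* (1.91), *Adora1* (0.261) and *Ptger4* (0.153), with *Ptger2* at 0. *Ednrb* led in both Renin null libraries, at 191 CPM per kb in YFP1 and 144 in YFP2. Below it, *Ptgir* was ahead of *Ednra* in YFP1 (8.87 and 7.92 CPM per kb) and behind it in YFP2 (4.32 and 40.6). *Ednra* was ahead of *Glp1r* (0.166 and 32.8) and *Ptgir* ahead of *Adrb1* (5.68 and 3.33) in each library, but the ranges of these neighbours over the libraries overlap. WT renin cells are a single library, so the spread between captures is unknown for their order.

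**Figure D2:**
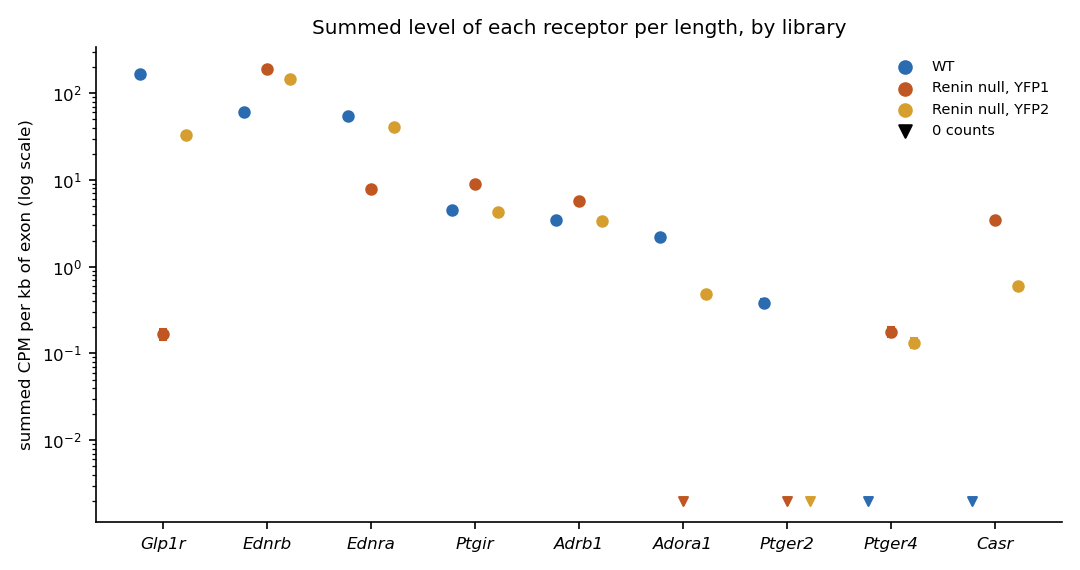
Summed CPM per kb of exon for each receptor (log scale) in the WT library and the Renin null libraries YFP1 and YFP2, with exact Poisson 95% intervals that are mostly smaller than the points, and triangles for 0 counts. The Renin null libraries lie close together for *Ednrb*, *Adrb1* and *Ptger4*, less so for *Ptgir* (8.87 and 4.32), and far apart for *Glp1r* (0.166 and 32.8).

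*Glp1r* (chr17:30901817-30940791, plus strand) was the receptor that stood out in WT renin cells. Its summed level was 977 CPM (95% interval 973 to 982) in WT and 104.2 CPM (103.2 to 105.2) in the Renin null sum, 9.37-fold lower (9.28 to 9.47). Over the 51 WT wells its level ran from 0 through a median of 15.6 CPM to 63428 CPM, and over the 96 Renin null wells from 0 through a median of 0 to 3195 CPM. The WT wells fell into separate ranges, with 10 wells at 1000 counts or more holding 99.5% of the counts, 1 well at 0 and the rest at a median of 15.5 counts. At 100 CPM or more were 11 WT wells and 4 Renin null wells.

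Of the 15 WT wells within the limits, 9 held at least 1000 *Glp1r* counts. Their levels were 3349.9 CPM in cell 44, 3324 in cell 18, 2635 in cell 3, 1868 in cell 33, 1708 in cell 6, 1159 in cell 43, 1124 in cell 5, 990.5 in cell 28 and 156 in cell 10. The other 6 were at 37.3 CPM in cell 50, at 3.49 CPM or below in cells 8, 35, 47 and 14, and at 0 in cell 23, which had 110872 counts in all. The highest level of all, 63428 CPM, was in cell 25, a well of 345177 counts and 54.3% mitochondrial counts outside the limits.

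Of the Renin null *Glp1r* counts, 85.1% were in a single well, cell 81 of YFP2, with 35364 counts (3195 CPM), and cell 91 of the same library held a further 5255 (739.9 CPM). Cell 81 had all 6 smooth muscle markers and 33986 CPM of the pericyte and mural cell markers, led by *Rgs5*. YFP1 held 175 counts over its 48 wells, 138 of them in cell 4, so the difference from WT was far larger with YFP1 alone (log2 ratio -9.98) than with YFP2 alone (-2.36). Leaving out the highest well of each genotype gave -5.76, against -3.23 with all wells. The direction was the same under every alternative tried. In wells thinned to 62978 counts, 55.1% of WT wells (27 of 49) and 10.8% of Renin null wells (9 of 83) had a *Glp1r* count, against 98.0% and 33.3% unthinned. Thinning does not separate low WT counts from counts spread between wells. At 100 CPM or more the shares were 21.6% of all WT wells and 4.17% of all Renin null wells.

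**Figure D3:**
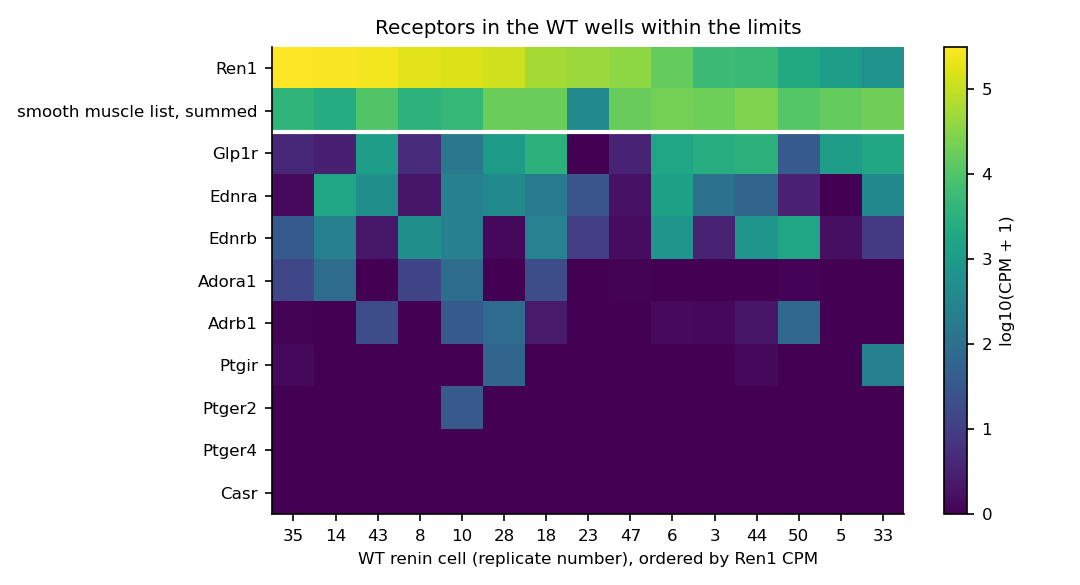
Level, as log10(CPM + 1), of *Ren1*, of the summed smooth muscle markers and of the 9 receptors in the 15 WT wells within the limits, ordered by *Ren1* from left (cell 35, 313965 CPM) to right (cell 33, 674 CPM). *Adora1* lies in wells to the left and the highest *Glp1r* value in the well with the highest smooth muscle level (cell 44), with no receptor present in all 15 wells at 100 CPM.

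Within WT renin cells, *Glp1r* went with the smooth muscle markers more than with *Ren1*. Over the 15 wells within the limits, which share a library and differ in depth, Pearson's r of log2(CPM + 1) was 0.78 with the summed smooth muscle list and -0.46 with *Ren1*. Over all 51 WT wells these values were weaker, 0.47 and -0.20. Over the 15 wells without the 2 farthest from the median of each marker measure, r was 0.70 and -0.36. Over all 15, r was also 0.58 with the fibroblast list, 0.53 with the pericyte and mural cell list and 0.46 with log10 total counts. The part of these in the link with smooth muscle markers was not tested. The 3 wells with most *Ren1* included 1 with *Glp1r* above 100 CPM (cell 43, 1159 CPM) and a pair with almost none, cell 35 at 3.03 CPM and cell 14 at 2.09 CPM. At the other end, cell 33, with 674 CPM of *Ren1*, held 1868 CPM of *Glp1r*.

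*Adrb1* (chr19:56722199-56733113, plus strand), the target of sympathetic nerves, was low in both genotypes, and the difference between them depended on the processing. Its summed level was 11.6 CPM (11.1 to 12.1) in WT and 14.9 CPM (14.5 to 15.3) in the Renin null sum, with 19.2 CPM in YFP1 and 11.3 CPM in YFP2. The log2 ratio was 0.36 with all wells, 0.04 in wells within the limits and -0.35 with TMM factors, but 1.40 in thinned wells, 1.22 for the mean over wells of CPM and 1.21 with counts corrected for depth by SCTransform, so both its direction and its side of 2-fold changed. The highest wells were at 82.1 CPM in WT (cell 28) and 303 CPM in Renin null cells (cell 55), and the median well of each genotype was at 0. At 100 CPM or more were 0 of 51 WT wells, which allows a share of up to 5.88% of wells (3 of 51), and 3 of 96 Renin null wells. Counts of any size were found in 13 WT wells (25.5%) and 35 Renin null wells (36.5%). Within the limits the order for counts of any size turned, though the exact binomial intervals overlap. There, 9 of 15 WT wells (60%, 32.3% to 83.7%) and 23 of 57 Renin null wells (40.4%, 27.6% to 54.2%) had a count. At 10 counts or more they were 6 and 16 wells, and at 100 CPM or more 0 and 3, where the order did not turn. Low WT counts among these cannot be told apart from counts spread between wells.

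The prostanoid receptors were scarce and each sat in few wells. *Ptgir* (chr7:16906490-16910905, plus strand), the prostacyclin receptor, was at 15.1 CPM (14.6 to 15.7) in the WT sum and 21.3 CPM (20.9 to 21.8) in the Renin null sum, with 29.6 CPM in YFP1 and 14.4 CPM in YFP2. The median well was at 0 in both, and the highest was at 255 CPM in WT (cell 33) and 413 CPM in Renin null cells (cell 11). In WT, cell 33 held 75.4% of the counts and cell 28 held 24.1%. In Renin null cells the largest counts were 2514 in cell 45, 2329 in cell 11 and 2254 in cell 93, and cells 45 and 93 were a nearly identical pair. Counts of any size were found in 10 WT and 22 Renin null wells, and 100 CPM or more in 1 and 5. With such pairs counted once the log2 ratio went from 0.49 to 0.07, and with TMM factors it was -0.21. It passed 2-fold without the highest well of each genotype (1.97), in thinned wells (1.92), for the mean over wells of CPM (1.37) and with SCTransform-corrected counts (1.35). Over wells within the limits, r of *Ptgir* with the distal tubule list was 0.63 in Renin null cells (57 wells) and -0.23 in WT (15 wells). With the macrophage list it was 0.08 and 0.70. Cells 45 and 93 entered the Renin null values as separate wells. The part of these markers in the *Ptgir* counts was not tested.

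*Ptger2* and *Ptger4*, both receptors for prostaglandin E2, did not occur together in a genotype. *Ptger2* (chr14:44988195-45003820, plus strand) had 397 counts in WT, all in cell 10 (32.5 CPM), and 0 in the 96 Renin null wells, which allows a share of up to 3.12% of wells (3 of 96). Set against a floor of 3 counts over the genotype, its Renin null level was at least 267-fold lower (216-fold at the 95% limit of the counting interval), a value that rests on that well, since without it both genotypes were at 0. Cell 10 also had 10791 genes, the most of any WT well, and the highest sum of proximal tubule markers among WT wells (682 CPM, with 6 of 8 markers present and *Slc5a2* and *Slc5a12* at 0). *Ptger4* (chr15:5206661-5244187, minus strand) had 0 counts in the 51 WT wells and 405 counts in 21 Renin null wells, 10 in YFP1 and 11 in YFP2, at least 66.99-fold higher by the same floor. The log2 ratio was at least 6.07 with all wells (5.76 at the 95% limit), 5.45 in wells within the limits and 5.44 without the highest well. It fell below 2-fold in thinned wells (0.98) and for the difference of mean log2(CPM + 1) (0.43). Its summed level in Renin null cells was 1.02 CPM (0.919 to 1.12), and the highest well was at 68.5 CPM, so that 0 wells of either genotype reached 100 CPM. The largest counts were 145 in cell 30 and 121 in cell 91. Over the 57 Renin null wells within the limits r of *Ptger4* with the summed macrophage markers was 0.63, and 0.30 over all 96 wells. Cell 91 had 75.6 CPM of these markers, all of it *Ptprc*, with the other 5 at 0, and cell 30 had 0.611 CPM. The part of these markers in the *Ptger4* counts was not tested. Exons of both genes overlap genes on the other strand, *Ttc33* in the case of *Ptger4*, and the library kit as described marks no strand.

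Of the inhibitory receptors, *Adora1* (chr1:134199223-134235431, minus strand) was lower and *Casr* was higher in Renin null cells. *Adora1* was at 12.7 CPM (12.2 to 13.2) in the WT sum and 1.51 CPM (1.39 to 1.64) in the Renin null sum, 8.38-fold lower (7.67 to 9.18). Counts were present in 10 of 51 WT wells and 3 of 96 Renin null wells, all of these in YFP2, and 10 counts or more in 5 and 2. At 100 CPM or more the order was the other way, with 0 WT wells and 1 Renin null well. In WT the highest levels were 87.6 CPM in cell 10, 85.4 in cell 14, 19.3 in cell 18, 13.6 in cell 35 and 13.4 in cell 8, and the next well within the limits was below 1 CPM.

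These 5 WT wells had *Ren1* between 57004 and 313965 CPM, and all of them were among the 7 wells within the limits with most *Ren1*. Over the 15 wells within the limits r of *Adora1* with *Ren1* was 0.61, and 0.59 without the 2 wells farthest from the median of *Ren1*. Over the same wells r was also 0.59 with the thick ascending limb list and 0.52 with the hemoglobin genes. Cell 10, which held 42.6% of the WT *Adora1* counts, was the WT well with most genes and most proximal tubule markers. Of the Renin null *Adora1* counts, 96.5% were in cell 69, with 582 counts (138 CPM). That well had 9864 CPM of the proximal tubule markers, against a median of 26.1 CPM over Renin null wells, and its index labels did not match each other. The part of these markers in the *Adora1* counts was not tested. Without the highest well of each genotype the log2 ratio was -7.19, against -3.07, while it was -1.36 with SCTransform-corrected counts and below 2-fold in thinned wells (-0.91) and for the difference of mean log2(CPM + 1) (-0.48). *Adora1* exons overlap those of *Mybph* on the other strand.

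*Casr* (chr16:36493696-36562141, minus strand), which senses extracellular calcium, had 0 counts in the 51 WT wells, which allows a share of up to 5.88% of wells (3 of 51), and 3600 counts in 11 Renin null wells. Its level was 9.03 CPM (8.73 to 9.33) in Renin null cells, at least 595-fold higher than the WT floor of 3 counts. On the log2 scale this was 9.22 with all wells (8.92 at the 95% limit), 7.56 with YFP2 alone, 6.73 without the highest well, 2.86 in thinned wells and 0.24 for the difference of mean log2(CPM + 1). The counts were almost all in a pair of wells, 2970 in cell 23 of YFP1 (331 CPM) and 618 in cell 58 of YFP2 (101 CPM), and no other well had more than 2. Cell 23 stood apart from most sorted wells in its markers. It had 21.9 CPM of the smooth muscle markers, against a median of 5579.7 CPM over Renin null wells, and 3870.1 CPM of the thick ascending limb markers with all 5 present. This well held 95.03% of all Renin null counts of *Slc12a1*, the salt transporter of the thick ascending limb, a segment in which *Casr* is known to be abundant. Cell 58 had 14380 CPM of the smooth muscle markers and 24684 CPM of the pericyte and mural cell markers.

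**Figure D4:**
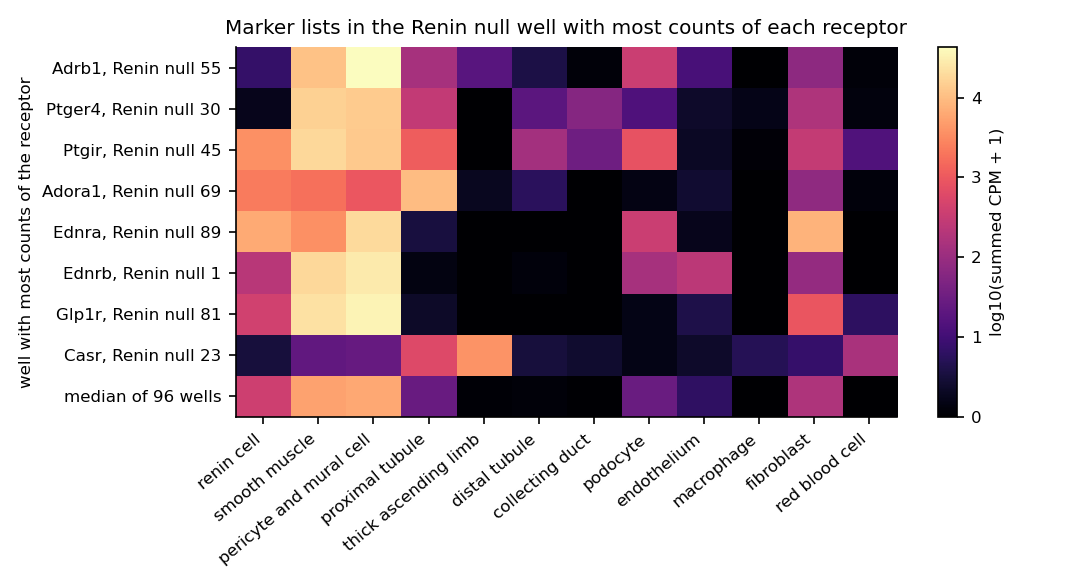
Summed level of each marker list, as log10(CPM + 1), in the Renin null well with most counts of each receptor (rows) and, in the last row, the median over the 96 Renin null wells. The well with most *Casr*, cell 23, is the row with the lowest smooth muscle and mural levels and the highest thick ascending limb level, and the well with most *Adora1*, cell 69, has the highest proximal tubule level of those shown.

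The endothelin receptors were the most widely held of the 9 receptors in Renin null cells, and the balance between their summed levels differed between the genotypes. *Ednra* (chr8:77663031-77724464, minus strand), the receptor that constricts vascular smooth muscle, was at 299 CPM (296 to 301) in the WT sum and 141 CPM (139.9 to 142) in the Renin null sum, 2.12-fold lower (2.09 to 2.14). *Ednrb* (chr14:103814625-103844402, minus strand), which binds all endothelins and is best known from endothelium, was at 257 CPM (255 to 259) in the WT sum and 705.8 CPM (703.2 to 708.4) in the Renin null sum, 2.75-fold higher. In summed CPM, *Ednra* and *Ednrb* were close to each other in WT and *Ednrb* was ahead in both Renin null libraries. By the mean over wells of CPM, *Ednrb* was ahead in both genotypes. It was at 330 against 109 CPM in WT and 439 against 81.6 CPM in Renin null cells.

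*Ednra* levels per well ran from 0 through a median of 2.93 CPM to 1667 CPM in WT and from 0 through 0.463 CPM to 2702 CPM in Renin null cells. The WT counts were concentrated in 8 wells of 1000 counts or more, which held 98.7% of them, led by cell 14 (19964 counts), cell 6 (15308) and cell 43 (9570). Of the Renin null counts, 51.8% were in cell 89 of YFP2, with 29117 counts, and that well had the highest sum of fibroblast markers of any Renin null well (7889.9 CPM, led by *Col3a1*) beside 19218 CPM of pericyte and mural cell markers. The Renin null libraries lay apart, with 43.4 CPM in YFP1 and 222.5 CPM in YFP2, so the log2 ratio to WT was -2.78 with the former and -0.43 with the latter. It was also below 2-fold in thinned wells (-0.23), for the mean over wells of CPM (-0.42), with SCTransform-corrected counts (-0.60) and for the difference of mean log2(CPM + 1) (-0.92). At 100 CPM or more were 11 WT wells (21.6%) and 15 Renin null wells (15.6%). The WT wells among them that were outside the limits, cells 11, 12 and 15, held only 29, 10 and 4 counts. Within the limits, the wells at 100 CPM or more were 8 of 15 WT wells (53.3%, exact binomial interval 26.6% to 78.7%) and 12 of 57 Renin null wells (21.1%, 11.4% to 33.9%). In wells thinned to the same depth, with no limit on the mitochondrial share, the shares with a count were 30.6% and 30.1%. *Ednra* exons overlap those of *4933431K23Rik* on the other strand.

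*Ednrb* levels per well ran from 0 through a median of 2.20 CPM to 11895 CPM in WT and from 0 through 22.6 CPM to 5351 CPM in Renin null cells. At 100 CPM or more were 9 WT wells (17.6%) and 39 Renin null wells (40.6%). Among them were shallow wells with few counts, WT cell 15 (3 counts) and Renin null cells 44, 60, 64 and 71 (2, 3, 5 and 4). Within the limits the shares were closer, 7 of 15 WT wells (46.7%, 21.3% to 73.4%) and 32 of 57 Renin null wells (56.1%, 42.4% to 69.3%). In thinned wells, 13 of 49 WT wells (26.5%, exact binomial interval 14.9% to 41.1%) and 50 of 83 Renin null wells (60.2%, 48.9% to 70.8%) had a count. Here the libraries were closer, at 815 CPM in YFP1 and 614.6 CPM in YFP2, and the log2 ratio was 1.67 and 1.26. Cell 1 of YFP1 held 27.6% of the Renin null counts and 52.5% of those of YFP1, with 77611, and leaving out the highest well of each genotype gave a log2 ratio of 1.37, against 1.46.

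The size of the *Ednrb* difference depended on the scaling and on how wells were weighted. Its log2 ratio was 0.76 with TMM factors, 0.41 for the mean over wells of CPM, 0.42 in thinned wells and -0.07 with SCTransform-corrected counts, and 2.46 for the difference of mean log2(CPM + 1). The mean over wells is set in WT by cell 46, a well of 915523 counts and 54.1% mitochondrial counts with 11895 CPM of *Ednrb*. Its ratio was also near that of the bulk of the table, 0.29 above the all-gene median on the log2 scale, with 53.985% of genes lower. Relative to the same median, *Ednra* was at -2.26, *Adrb1* at -0.82, *Ptgir* at -0.68, *Adora1* at -4.24 and *Glp1r* at -4.40.

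**Figure D5:**
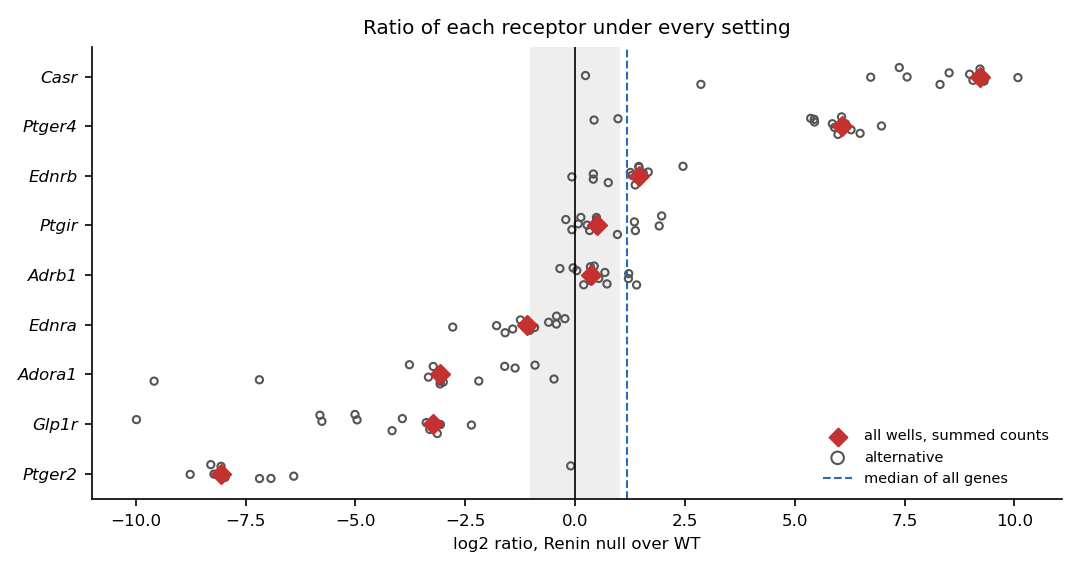
Log2 ratio, Renin null over WT, of each receptor with all wells and summed counts (diamonds) and under each alternative (circles), with the range of less than 2-fold in gray and the median of all genes as a dashed line. *Glp1r*, *Adora1*, *Ednra* and *Ptger2* stayed below 0 under each alternative that gave a value, *Ptger4* and *Casr* stayed above it, and *Ednrb*, *Adrb1* and *Ptgir* crossed it.

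Among Renin null wells within the limits, *Ednrb* went with the mural markers. Over 57 wells, r was 0.62 with the summed pericyte and mural cell list and 0.54 with the smooth muscle list, and 0.59 and 0.49 without the 2 wells farthest from the median of each. Over the 15 WT wells within the limits the same values were -0.04 and -0.08. Over all wells they were closer, 0.40 and 0.46 in the 51 WT wells and 0.50 and 0.55 in the 96 Renin null wells. The Renin null wells share 2 libraries, their nearly identical pairs entered as separate wells, and all wells differ in depth. The well with most *Ednrb*, cell 1, had 2 of 8 endothelial markers with a count, led by *Kdr* at 237 CPM, with *Cdh5*, *Emcn*, *Plvap*, *Tek*, *Flt1* and *Egfl7* at 0, beside 18348 CPM of smooth muscle markers.

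No well held more than 3 of the 9 receptors at 100 CPM or more. Counting receptors at 100 CPM or more, the 15 WT wells within the limits held 0 receptors in 3 wells, 1 in 3, 2 in 5 and 3 in 4. The 57 Renin null wells within the limits held 0 in 17 wells, 1 in 27, 2 in 10 and 3 in 3. In WT the most frequent pair was *Ednra* with *Glp1r*, together in 7 of the 10 wells that held either. In Renin null cells it was *Ednra* with *Ednrb*, together in 8 of 36, where *Ednra* was in 12 wells and *Ednrb* in 32. *Glp1r* and *Ednrb* were together in 4 of 12 such WT wells and 2 of 33 such Renin null wells.

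The genes most like a receptor over wells were named for receptors detected in 20% or more of a genotype's wells, by Pearson's r of log2(CPM + 1) over all wells of that genotype. In WT, over 51 wells and 6729 genes, *Glp1r* was most like *Iqgap1* (r = 0.79), *Prkg2* (0.73), a cyclic GMP-dependent protein kinase, and *Sh3bgrl* (0.71). *Ednra* was most like *Fam120a* (0.86), *Dynlt3* (0.84) and *Lrch1* (0.83), and *Ednrb* like *Aldoa* (0.78), *Dad1* (0.74) and *Lamp2* (0.73). *Adrb1* was most like *Pibf1* (0.92), *Vps26a* (0.84) and *Itpr2* (0.80), with few wells above the low counts that set these values. In WT renin cells r with the mitochondrial share was -0.58 for *Ednra*, -0.51 for *Ednrb* and -0.49 for *Glp1r*, and the part of RNA quality in this likeness was not tested.

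In Renin null cells, over 96 wells and 9352 genes, *Ednrb* was most like *Myl9* (0.61), the regulatory light chain of smooth muscle myosin, *Ccdc138* (0.59) and *Tpm1* (0.58), a tropomyosin. *Ednra* was most like *Mdk* (0.50), *Ecm1* (0.50) and *Galnt2l* (0.50), and *Glp1r* like *Dync1li2* (0.63), *Khdrbs1* (0.60) and *Nelfcd* (0.58). *Ptgir* was most like *Kcne4* (0.62), *Zfp523* (0.62) and *Rab20* (0.55), *Adrb1* like *Irs2* (0.60), *Olfr545* (0.60) and *Cd300a* (0.55), and *Ptger4* like *Mrtfa* (0.65), *Vwa1* (0.59) and *Celf6* (0.58). For the 4 receptors compared in both genotypes, the closest 3 genes had 0 in common. No background for this overlap was computed, and lists this short may share no gene by chance alone. The 0 is therefore not read as a difference between the genotypes. Between receptors, r in WT was at most 0.49 (*Ednra* with *Glp1r*), and in Renin null cells at most 0.29 (*Ednra* with *Ednrb*).

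Other receptors of the same families were mostly at low levels. Of 14 in the data, 9 had a ratio, of which 5 were higher and 2 lower in the Renin null sum by 2-fold or more (52.4% and 18.5% of all genes), and the median log2 ratio was 1.01 (1.17 for all genes), so the list was near the background. *Ptger1*, another prostaglandin E2 receptor, had no count in WT and was at 24.6 CPM in the Renin null sum, from 18 wells, mostly from YFP2 (log2 ratio at least 11.54 with YFP2 and 0.86 with YFP1). A single well held 65.1% of its counts. The lower pair were *Adora2b*, an adenosine receptor coupled to Gs (14.0 CPM in WT, 86.8% of it in a single well, and 2.36 CPM in the Renin null sum), and *Gcgr*, the glucagon receptor (15.9 and 0.251 CPM), whose WT counts were 99.6% in a single well. *Adrb3* (4.09 and 11.3 CPM) and *Tbxa2r*, the thromboxane receptor (3.28 and 10.9 CPM), were higher in Renin null cells, the latter not with YFP2 alone (log2 ratio 0.05) and with 83.03% of the Renin null counts in a single well.

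Of 25 other receptors of vasoactive and pressor hormones, 19 had a ratio, 10 at least 2-fold higher (52.4% of all genes) and 5 at least 2-fold lower (18.5%), with a median of 1.25 (1.17), again near the background. Of the type 1 angiotensin receptors, *Agtr1a* was at 334 CPM in WT, with 17 wells at 100 CPM or more, and 112 CPM in Renin null cells, with 10 such wells, while *Agtr1b* was at 0 in WT and 135 CPM in the Renin null sum, 76.3% of it in a single well and all of it in YFP1 (298 CPM), with YFP2 at 0 like WT. The natriuretic peptide receptor *Npr1* (82.2 and 36.3 CPM, 90.1% of the WT counts in a single well), the dopamine receptor *Drd1* (26.5 and 3.41 CPM, 76.8% of the WT counts in a single well) and *Vipr2*, a Gs-coupled receptor for vasoactive intestinal peptide and PACAP (88.4 and 38.7 CPM, log2 ratio -0.15 with YFP1 and -4.33 with YFP2), were lower in Renin null cells. With YFP2 alone *Npr1* lay within 2-fold (log2 ratio -0.86). *Drd1* was at 7.44 CPM in YFP1 and 0.0368 in YFP2. *Npr3* (15.1 and 35.9 CPM) was higher in the sum but lower with YFP1 alone (log2 ratio -7.17, against 2.12 with YFP2), and a single well held 78.96% of its WT counts. *Adra2b* (11.1 and 32.0 CPM, 90.5% of the WT counts in a single well), *Ramp1* (11.2 and 41.9 CPM, 70.7% of the WT and 47.9% of the Renin null counts in single wells) and *Adcyap1r1* (0.0101 and 14.6 CPM, 99.0% in a single well) were higher. *Calcrl*, which pairs with Ramp proteins to bind CGRP and adrenomedullin (128 and 242 CPM), *Adra1a* (125 and 79.5 CPM) and *Pth1r* (50.8 and 71.5 CPM) lay within 2-fold in the sum, though not with YFP1 alone (log2 ratios of 1.14, -1.16 and 1.30). For *Pth1r*, single wells held 86.6% of the WT and 74.5% of the Renin null counts.

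Most of the G proteins below the receptors lay within 2-fold. Of 9 alpha subunits none was at least 2-fold lower (18.5% of all genes) and 3 were at least 2-fold higher (52.4%), with a median of 0.28 (1.17). *Gnas*, which encodes Gs alpha, was at 518 CPM in the WT sum and 448 CPM in the Renin null sum, and *Gnai2* at 117 and 119 CPM. *Gnaq* (96.9 and 169 CPM), *Gna11* (153 and 142 CPM), *Gna12* (61.8 and 65.9 CPM) and *Gnai3* (47.6 and 57.8 CPM) also lay within 2-fold, *Gnaq* not with YFP2 alone (log2 ratio 1.16). Higher were *Gna13* (25.2 and 64.7 CPM, 96.2% of the WT counts in a single well, and within 2-fold in wells within the limits, at a log2 ratio of 0.84), *Gnao1* (0.263 and 11.2 CPM) and *Gnai1* (0 and 7.57 CPM, named for completeness after its values were seen).

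Of 12 receptor kinases, arrestins and RGS proteins, which switch receptors or G proteins off, 2 were at least 2-fold higher (52.4% of all genes) and 2 at least 2-fold lower (18.5%), with a median of -0.05 (1.17). *Rgs5*, abundant in mural cells, was at 11102 CPM in the WT sum and 14156 CPM in the Renin null sum. *Rgs3* was at 140 CPM in WT, with 5 wells at 100 CPM or more, and 9.49 CPM in Renin null cells, with 3. Its level was 1.52 CPM in YFP1 and 16.1 in YFP2. *Rgs2* (483 and 503.7 CPM), *Rgs4* (261 and 178 CPM), *Grk2* (8.64 and 16.8 CPM), *Grk3* (50.8 and 45.2 CPM) and *Grk4* (87.7 and 61.4 CPM) lay within 2-fold. This did not hold for *Grk3* with YFP1 alone (log2 ratio -2.60, against 0.58 with YFP2) or for *Rgs4* with YFP2 alone (-1.52, against 0.11).

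Genes for ligands and for the enzymes and carriers that make or clear them had the highest median of these lists: of 22, 18 had a ratio, 12 at least 2-fold higher (52.4% of all genes) and 3 at least 2-fold lower (18.5%), with a median of 3.54 (1.17). *Ptgs2*, which makes the precursor of the prostanoids, was at 0 in WT and 21.4 CPM in the Renin null sum, 72.1% of it in a single well. *Dpp4*, which cleaves GLP-1, was at 0 in WT and 83.3 CPM in the Renin null sum (27.9 in YFP1 and 129.6 in YFP2), in 28 wells, with 58.7% of it in a single well. *Mme* (neprilysin) was at 0 in WT and 37.7 CPM in the Renin null sum, 95.5% of it in a single well. *Nt5e*, which makes adenosine (1.44 and 20.3 CPM, 58.5% of the latter in a single well), *Adk*, which removes it (58.4 and 275 CPM, log2 ratio 0.69 with YFP1 and 2.87 with YFP2), and *Ece1*, which makes endothelin (35.3 and 116 CPM, 99.1% of the WT counts in a single well), were also higher. *Nt5e* was at 33.4 CPM in YFP1 and 9.29 in YFP2. The 3 lower genes were *Slco2a1*, the prostaglandin transporter (671 CPM in WT, with 27 wells at 100 CPM or more, and 165 CPM in Renin null cells, with 29), *Ptgis*, prostacyclin synthase (101 and 42.2 CPM, log2 ratio -0.66 with YFP2), and *Maoa* (20.9 and 2.64 CPM, 90.7% of the WT counts in a single well). *Ptges3* (924 and 1579 CPM) and *Entpd1* (106 and 92.3 CPM) were among those within 2-fold, the latter not with YFP2 alone (log2 ratio -1.68).

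Summed markers of other kidney cells were also higher with all Renin null wells, though not in each library. The 8 proximal tubule markers summed to 56.9 CPM in WT and 850.2 CPM in the Renin null wells (*Slc5a2* at 0 in WT), and the 5 thick ascending limb markers to 2.14 and 103 CPM (led by *Egf* and *Slc12a1*, *Cldn16* at 0 in WT, and 197 CPM in YFP1 against 25.3 in YFP2). The 6 podocyte markers summed to 95.9 and 799.6 CPM (led by *Synpo* and *Cdkn1c*, *Podxl* among those at 0 in WT, and 171 CPM in YFP1 against 1324 in YFP2), the 8 endothelial markers to 36.8 and 236 CPM (led by *Emcn*, with *Cdh5*, *Plvap*, *Tek* and *Egfl7* at 0 in WT, and 35.8 CPM in YFP1 against 403 in YFP2), and the 6 fibroblast markers to 173 and 1159 CPM (led by *Col1a2* and *Col3a1*, and 440.3 CPM in YFP1 against 1758 in YFP2). Single wells held 83.1% of the Renin null counts of *Cdkn1c*, 79.7% of *Nphs1* and 69.6% of *Emcn*, but 20.0% of *Synpo* and 16.9% of *Col3a1*. The 4 hemoglobin genes summed to 0.414 and 434 CPM (9.13 in YFP1 and 788.9 in YFP2), the 6 collecting duct markers to 33.7 and 85.01 CPM (7.57 in YFP1 and 149.6 in YFP2, with *Scnn1g*, *Slc4a1* and *Atp6v1g3* lower than in WT and the other 3 higher), the 4 distal tubule markers to 0.399 and 16.9 CPM (6.58 in YFP1 and 25.5 in YFP2), and the 6 macrophage markers to 0.985 and 4.36 CPM. The renin cell marker *Akr1b7* summed to 4528 and 2011 CPM, and *EYFP*, the reporter of the sort, was at 317 and 1169 CPM. *EYFP* was at 1815 CPM in YFP1 and 630.5 in YFP2, and a single YFP1 well held 295352 of its 466347 Renin null counts. Its median well was at 1.05 CPM in WT (37 of 51 wells with a count) and 6.80 CPM in Renin null cells (88 of 96). In the Renin null well with most counts of each receptor, *EYFP* was at 386 CPM for *Ptgir*, 187 for *Ptger4*, 11.1 for *Ednra* and 2.17 for *Glp1r*. It was at 1.32 for *Adrb1*, 0.711 for *Adora1*, 0.557 for *Casr* and 0.0689 for *Ednrb*. The 6 smooth muscle markers (10732 and 11977 CPM) and the 5 pericyte and mural cell markers (12404 and 14807 CPM) were closer. In the latter list *Rgs5* held most of the sum, while *Pdgfrb* (503.5 and 83.4 CPM) and *Notch3* (310 and 146 CPM) fell short of WT by over 2-fold, and *Cspg4* (209.6 and 146.5 CPM) and *Mcam* (278 and 276 CPM) lay within 2-fold. *Notch3* was also within 2-fold with YFP2 alone (log2 ratio -0.62, against -1.99 with YFP1). The part of these markers in the receptor differences was not tested.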

How the data were processed

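Sorted cells were each held in a well of the Fluidigm C1 System. Their polyadenylated RNA was amplified with SMART-Seq v4 and made into Nextera XT libraries, without molecular identifiers. The authors trimmed the reads (Trimmomatic 0.39), quantified them against GRCm38 transcripts (Salmon 0.11.2) and summed them to genes with tximport (lengthScaledTPM). The values the authors deposited are therefore expected counts, scaled by transcript length and not by depth, for 35438 genes in 51 WT and 96 Renin null wells. The tool versions are from the submitters' processing notes.

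The expected counts were rounded, summed over the wells of a genotype and scaled to counts per 1000000 (CPM). No test between genotypes was run because each genotype is 1 sample. The log2 ratio is Renin null over WT, called at 2-fold, taken against a floor of 3 counts for a genotype at 0, and left out where neither genotype held more than 3 counts. Intervals at 95% are exact Poisson, exact conditional (ratios) and exact binomial (Clopper-Pearson, shares of wells). Where 0 wells held a count, the share allowed is instead given as 3 of the wells, which limits wells with a count and not cells that express the gene. Depth per well is given with the results. Gene positions and exon lengths are from GENCODE M21 on GRCm38, which was matched by symbol.

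The members were picked by symbol and not by their values. They, the gene lists, the marker lists and the alternatives were still chosen with earlier results of these data known. Named genes are the 9 receptors, genes of the lists at 10 CPM or more in either genotype, and the 3 genes most like a receptor over wells. Wells were thinned to 62978 counts, the 10th percentile, which left out 2 WT and 13 Renin null wells. For the index comparison, wells with discordant index labels were left out. No doublet caller was run, and wells with over 9000 genes (1 WT, 6 Renin null) were kept. The calculation of the ratio was tried on simulated data, the outcome of which is not reported here. The software was Python 3.11.15 (numpy 2.4.6, pandas 2.3.3, scipy 1.17.1, matplotlib 3.10.9) and R 4.3.3 (edgeR 4.0.16 for TMM factors of 0.784 for WT and 1.28 for Renin null, Seurat 5.3.0 and sctransform 0.4.2). Values of some single genes of the lists are not reported here.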

Additional observations from a re-analysis of the deposited data

How the results depend on the processing

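Of the receptor ratios, *Glp1r* (-9.98 to -2.36 on the log2 scale), *Adora1* (-9.58 to -0.48), *Ednra* (-2.78 to -0.23) and *Ptger2* (-8.76 to -0.10) were below 0 under each alternative that gave a value, and *Ptger4* (0.43 to 6.98) and *Casr* (0.24 to 10.1) were above 0. *Adrb1* (-0.35 to 1.40), *Ptgir* (-0.21 to 1.97) and *Ednrb* (-0.07 to 2.46) crossed 0, and the *Ednrb* value that reversed was -0.073, with SCTransform-corrected counts. The number of receptors at least 2-fold lower went from 4 to 1 for the difference of mean log2(CPM + 1) (1.90% of all genes), to 2 with SCTransform-corrected counts (13.6%) and to 1 in thinned wells (13.5%). The number at least 2-fold higher went from 3 to 1 for the difference of mean log2(CPM + 1) (9.03%). It was 2 with TMM factors (43.1%) and 4 for the mean over wells of CPM (61.2%), with SCTransform-corrected counts (62.6%) and without the highest wells (62.7%). In thinned wells it was 3 (56.9%), but these were *Adrb1*, *Ptgir* and *Casr* in place of *Ednrb*, *Ptger4* and *Casr*. The number with the larger share of Renin null wells went from 5 to 3 in wells within the limits. The share over all genes was taken with all wells only (74.4%), so the move to 3 has no background to be set against. The cause of these changes was not tested. *Ptger2* had no value with SCTransform-corrected counts, in thinned wells or without its highest well. Limits of 100 CPM on shares and the removal of wells under 500000 counts were chosen after seeing the data, and the latter gave 4 lower (18.8% of genes) and 3 higher (52.1%). No paired analysis was possible because the replicate numbers only name wells in accession order and the results come from no test. Depth limits receptors with few counts, and the WT library held 1 capture.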
